A study of Mus musculus with 12 samples.

Results

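The dual-specificity MAP kinase phosphatases were followed in mouse CD8 T cells after contact with an antibody to CD3, with interferon gamma or with lipopolysaccharide. The 8 members, Dusp1, Dusp2, Dusp4, Dusp5, Dusp6, Dusp7, Dusp10 and Dusp16, were taken by gene symbol from a table of 20778 genes, and all 8 were among the 12122 genes that passed the filter on low counts. With αCD3, Dusp2 and Dusp5 rose and Dusp10 and Dusp1 fell. With LPS, Dusp16, Dusp4 and Dusp5 rose and Dusp6 fell. With IFNγ, Dusp1 and Dusp7 fell. The Dusp5 call with LPS and both IFNγ calls were each lost when any 1 of 5 of the 12 libraries was left out. Those fits did not pair the libraries by replicate number. With that number as a block in the fit, these calls passed. Dusp2 and Dusp10 then fell with IFNγ as well, and with LPS Dusp2 rose and Dusp10 fell.

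The study compared expression profiles of T cells after different activations. The cells came from spleens of C57BL/6 mice aged 6 weeks by the labels, were picked with magnetic beads against CD8, and were cultured for 6 hours. They were left untreated (Naïve), or were given αCD3 at 1 µg/ml, IFNγ at 70 ng/ml or LPS at 1 µg/ml, with 3 RNA libraries in each of the 4 groups. No group carried an altered allele. αCD3 engages the T cell receptor complex, IFNγ is a cytokine of activated T cells, and LPS is a bacterial cell wall product sensed by Toll-like receptors. The unit of the αCD3 and LPS doses is uncertain, because another label has mg/ml, and so is the age, because the methods of the study give older mice. The sources used here do not state that the replicates were separate animals, and p-values then measure the spread between these libraries only.

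MAP kinases (ERK, JNK and p38) are switched on when a threonine and a tyrosine in their activation loop are phosphorylated, and MAP kinase phosphatases remove both phosphates. Several of these phosphatase genes are themselves induced by MAP kinase signalling, so that they act as feedback inhibitors. In T cells, MAP kinase signalling follows engagement of the antigen receptor and of cytokine and innate receptors. The members fall into 3 classes: the inducible nuclear phosphatases (Dusp1, Dusp2, Dusp4 and Dusp5), the cytoplasmic phosphatases that prefer ERK (Dusp6 and Dusp7), and those that prefer JNK and p38 (Dusp10 and Dusp16).

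Estimated counts summed to between 10196248 and 27610175 per library, the highest in αCD3 replicate 1. In each group, replicate 1 stood apart from replicates 2 and 3: the chi-square statistic per degree of freedom between their counts was 20.8 to 55.8 for pairs with replicate 1, against 4.66 to 5.80 between replicates 2 and 3. Values on replicates 2 and 3 alone are therefore given for the members called against Naïve, for other members where they change a call, and for the pathway lists. Cd8a, Cd8b1 and Cd3e, which define CD8 T cells, were present in every library, with group means of 205 to 432, 315 to 384 and 99.1 to 179 CPM (counts relative to the library size after TMM scaling). Markers of other spleen cells were present too. For B cells, 10 markers summed to 3433 to 3755 CPM in Naïve, 2389 to 2782 in αCD3, 2735 to 2872 in IFNγ and 1966 to 2968 in LPS libraries, with none at 0. The sum of 9 T cell markers was 1563 to 1714 CPM in Naïve, 2139 to 2301 in αCD3, 1697 to 1767 in IFNγ and 1336 to 1520 in LPS libraries. The sum of 10 macrophage and monocyte markers was 776 to 1381, 720 to 1448, 1323 to 2268 and 957 to 1541 CPM in the same order, and its defining marker Csf1r had a mean of 109 CPM in Naïve and 26.3 CPM in LPS cells. Of the defining markers of the remaining types, Cd4 had group means of 26.5 to 37.0, Flt3 of 12.5 to 30.3 and Ncr1 of 1.84 to 3.93 CPM, and the neutrophil marker Ly6g reached 0.409 CPM in 1 LPS library and was at 0 in all αCD3 libraries. Summed marker levels over all libraries were 66.9 to 122 CPM for CD4 T cells (4 genes), 112 to 199 for neutrophils (5 genes), 48.0 to 118 for dendritic cells (6 genes) and 18.6 to 198 for NK cells (6 genes). The libraries thus held RNA of cells other than CD8 T cells. In such bulk samples, fewer cells of a type and less RNA per cell cannot be told apart.

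The members are protein-coding genes on 8 chromosomes, and their counts are sums over whole transcripts. On GRCm38 (GENCODE M21) the nuclear phosphatases lie at chr17:26505590-26562128 (Dusp1), chr2:127336159-127338376 (Dusp2), chr8:34807297-34819894 (Dusp4) and chr19:53529109-53542431 (Dusp5). The ERK phosphatases lie at chr10:99263231-99267489 (Dusp6) and chr9:106368632-106375724 (Dusp7), and those that prefer JNK and p38 at chr1:184013302-184075636 (Dusp10) and chr6:134715468-134792625 (Dusp16). The annotated span of Dusp1 overlaps 2 genes on its own strand and 2 on the other, Ergic1 among the 4, and no other gene overlaps Dusp2, Dusp4, Dusp6 or Dusp7.

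Levels were first compared between the members within untreated cells, scaled by length as CPM per kilobase of annotated exon. Dusp2 (66.8 ± 12.9, SD, n = 3), Dusp10 (65 ± 13.1) and Dusp5 (56.0 ± 4.16) led, and neighbours in this order overlapped between libraries. Dusp1 followed at 20.2 ± 0.593, then Dusp4 at 15.2 ± 3.02 and Dusp7 at 11.4 ± 0.18, with no overlap between neighbours. Dusp6 (6.28 ± 0.742) and Dusp16 (4.09 ± 0.343) were the lowest and did not overlap each other. The order moved with treatment. In αCD3 cells Dusp10 stood at 17 ± 4.14 CPM per kilobase, and its libraries overlapped those of Dusp4 (16.5 ± 3.11) and Dusp1 (13.6 ± 1.60), while Dusp2 (121 ± 29.7) and Dusp5 (98.9 ± 13.1) overlapped at the top. In IFNγ cells Dusp2 (52.6 ± 10.6), Dusp5 (49.9 ± 7.17) and Dusp10 (43.7 ± 8.10) overlapped again, as did Dusp4 (16.7 ± 0.680) and Dusp1 (14.5 ± 2.52). In LPS cells Dusp6 was the lowest member at 3.30 ± 0.559, and Dusp16 at 8.86 ± 1.57 overlapped Dusp7 at 10.6 ± 0.929. The summed level of the 8 members was 669 ± 22.6 CPM in Naïve, 718 ± 53.8 in αCD3, 545 ± 25.9 in IFNγ and 758 ± 43.7 in LPS cells.

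**Figure D1:**
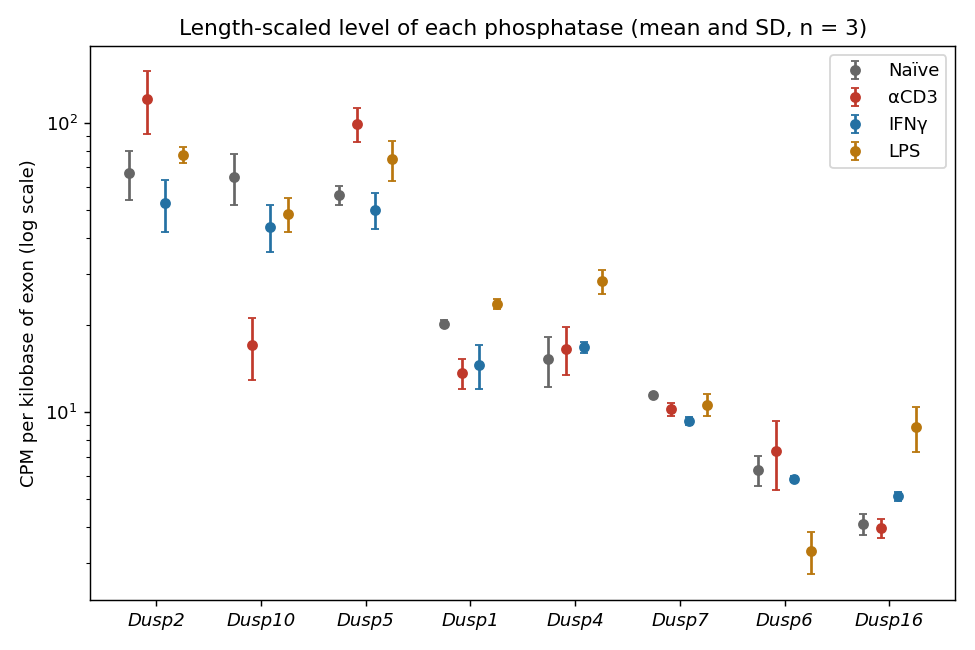
Level of each phosphatase by group, as CPM per kilobase of exon on a log axis (point: mean, bar: SD, n = 3 libraries). Dusp2, Dusp10 and Dusp5 lie highest in Naïve cells, Dusp10 drops to 17 with αCD3, and Dusp6 is lowest in LPS cells at 3.30.

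Of the nuclear phosphatases, Dusp2, known as the phosphatase of activated cells, was measured at 164, 119.6 and 118 CPM in Naïve replicates 1 to 3 and at 311, 208 and 209 CPM with αCD3. With IFNγ it was at 129.7, 92.2 and 94.1 CPM, and with LPS at 164, 156 and 145 CPM. The αCD3 libraries lay above all others, and in each group except LPS replicate 1 stood well above the other two. Dusp2 rose by 0.86 ± 0.19 (SE) on the log2 scale with αCD3, or 1.81-fold (adjusted p = 0.00548, edgeR quasi-likelihood test with Benjamini-Hochberg adjustment over all tested genes). The IFNγ and LPS differences from Naïve were -0.35 ± 0.19 (adjusted p = 0.299) and 0.21 ± 0.19 (adjusted p = 0.389). Both passed once the replicate number was a block in the fit (-0.35, adjusted p = 0.0114 and 0.23, adjusted p = 0.0312), and likewise on replicates 2 and 3 alone (-0.37, adjusted p = 0.00128 and 0.34, adjusted p = 0.000569).

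Dusp5, a nuclear phosphatase selective for ERK, stood at 127, 146 and 143 CPM in Naïve, 208, 269 and 257 CPM in αCD3, 103, 129 and 137 CPM in IFNγ and 154, 211 and 189.7 CPM in LPS libraries. Neither the αCD3 nor the LPS libraries overlapped the Naïve ones. The rise was 0.82 ± 0.14 on the log2 scale, or 1.77-fold, with αCD3 (adjusted p = 0.00123) and 0.42 ± 0.14, or 1.34-fold, with LPS (adjusted p = 0.0316). Part of the Dusp5 transcript occurs elsewhere in the GENCODE M21 transcripts, since 78.8% of its 31-base words were unique against at least 99.3% for the other members. An antisense gene, AC137853.2, overlaps it. Yet its deposited counts were whole numbers in every library. Those of Dusp1, Dusp7 and Dusp16 were fractional in every library, and those of Dusp6 in most. The annotation used for counting is not given, so the word share does not show how Dusp5 reads were divided.

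Dusp1, an immediate early phosphatase that acts on all 3 kinase families, was at 67.9, 64.5 and 68.0 CPM in Naïve libraries. It was at 51.2, 41.5 and 42.8 CPM with αCD3, 55.1, 38.8 and 50.4 CPM with IFNγ and 77.5, 81.6 and 75.2 CPM with LPS. All αCD3 and IFNγ libraries lay below, and all LPS libraries above, the Naïve range. The gene fell by 0.56 ± 0.12 on the log2 scale with αCD3 (adjusted p = 0.00387) and by 0.47 ± 0.12 with IFNγ (adjusted p = 0.0259), while the LPS difference of 0.23 ± 0.12 did not pass (adjusted p = 0.136), except in a fit of those 2 groups alone (0.21, adjusted p = 0.0358).

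Dusp4, a nuclear phosphatase close in sequence to Dusp1, was at 51.1, 38.9 and 35.3 CPM in Naïve, 55.1, 40.5 and 40.1 CPM in αCD3 and 47.2, 46.4 and 43.6 CPM in IFNγ libraries, which overlapped one another. The LPS libraries, at 69.7, 84.8 and 78.1 CPM, stood above all of these. Dusp4 rose by 0.89 ± 0.15 on the log2 scale with LPS, or 1.86-fold (adjusted p = 0.000794), against 0.12 ± 0.15 with αCD3 (adjusted p = 0.564) and 0.13 ± 0.15 with IFNγ (adjusted p = 0.66). On replicates 2 and 3 alone the IFNγ difference was 0.27 and passed (adjusted p = 0.0386), and that with LPS was 1.14.

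Of the cytoplasmic ERK phosphatases, Dusp6 was at 22.2, 17.6 and 19.2 CPM in Naïve, 30, 18.5 and 20.5 CPM in αCD3 and 18.8, 17.9 and 18.4 CPM in IFNγ libraries. LPS libraries were lower, at 9.41, 12.4 and 9.25 CPM, and overlapped no other group. Dusp6 fell by 0.93 ± 0.19 on the log2 scale with LPS, or 1.90-fold (adjusted p = 0.00203). The αCD3 difference from Naïve was 0.23 ± 0.18 (adjusted p = 0.32), -0.01 without αCD3 replicate 1 and 0.09 on replicates 2 and 3 alone (adjusted p = 0.632).

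Dusp7 varied least of the members in Naïve cells, at 38.0, 38.0 and 39.0 CPM. It was at 32.8, 34.1 and 36.3 CPM with αCD3, 32.2, 30.3 and 31.3 CPM with IFNγ and 32.3, 38.5 and 36.0 CPM with LPS. IFNγ libraries lay below the Naïve range and so did αCD3 libraries, whereas LPS libraries overlapped it. The fall with IFNγ was 0.30 ± 0.07 on the log2 scale, or 1.23-fold (adjusted p = 0.0255), and the differences with αCD3 (-0.16 ± 0.07, adjusted p = 0.112) and LPS (-0.11 ± 0.07, adjusted p = 0.261) did not pass.

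Dusp10, which acts on JNK and p38, gave the largest difference of any member from Naïve. It was at 157, 200 and 237 CPM in Naïve libraries and at 57.1, 37.4 and 60.8 CPM with αCD3, where all libraries lay below every other group. With IFNγ it was at 109.6, 131 and 159 CPM and with LPS at 146, 128 and 167 CPM, and both overlapped the lowest Naïve library. Dusp10 fell by 1.93 ± 0.22 on the log2 scale with αCD3, or 3.81-fold (adjusted p = 8.75e-05). The differences with IFNγ (-0.57 ± 0.21, adjusted p = 0.107) and LPS (-0.43 ± 0.21, adjusted p = 0.111) did not pass, but did with the replicate number as a block (-0.57, adjusted p = 0.0288 and -0.42, adjusted p = 0.0431). The IFNγ difference also passed in DESeq2 (adjusted p = 0.0462). On replicates 2 and 3 alone neither passed (-0.61, adjusted p = 0.153 and -0.56, adjusted p = 0.113). An antisense gene, 1700056E22Rik, overlaps Dusp10, and whether the counting used strand is not given in the sources used here.

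Dusp16, the other phosphatase that prefers JNK and p38, was at 31, 29.7 and 34.9 CPM in Naïve and 33.4, 29.0 and 30.2 CPM in αCD3 libraries. It was at 41.1, 38.2 and 40.0 CPM with IFNγ and 54.9, 76.5 and 75.8 CPM with LPS, so that both groups lay above the Naïve range and LPS above IFNγ. The rise with LPS was 1.12 ± 0.12 on the log2 scale, or 2.17-fold (adjusted p = 3.8e-05), and the IFNγ difference of 0.32 ± 0.12 did not pass (adjusted p = 0.125). The αCD3 difference was -0.04 ± 0.12 (adjusted p = 0.806). An antisense gene, Gm36328, overlaps this gene too.

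**Figure D2:**
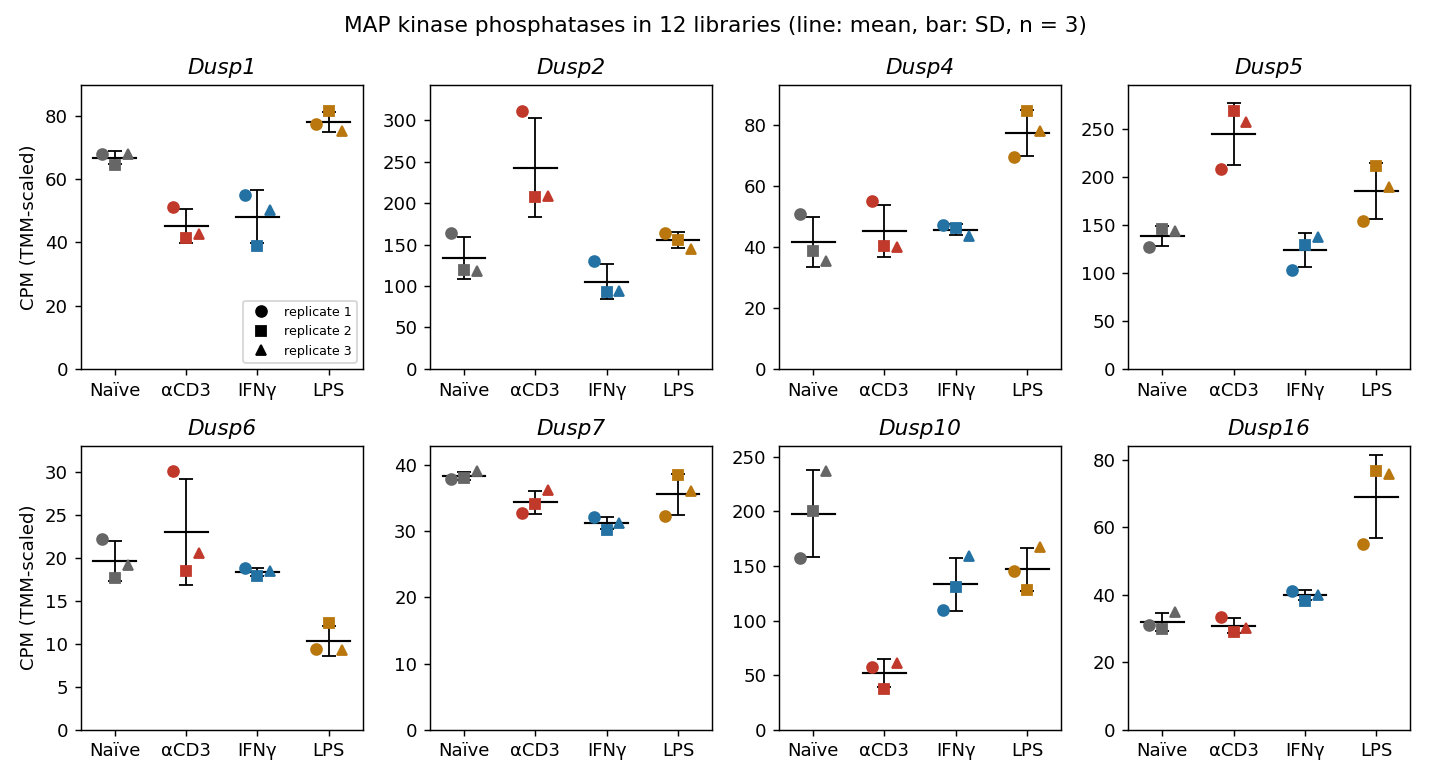
CPM of each of the 8 phosphatases in the 12 libraries, by group (points: replicates 1 to 3, line: mean, bar: SD, n = 3). By group mean, Dusp2 and Dusp5 sit highest in αCD3, Dusp10 lowest in αCD3, Dusp4 and Dusp16 highest in LPS and Dusp6 lowest in LPS libraries. Dusp5 in LPS replicate 2 (211 CPM) lies above αCD3 replicate 1 (208 CPM).

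The starts of 4 members are shown: Dusp2 and Dusp5, which rose with αCD3, Dusp10, which fell with it, and Dusp16, which rose with LPS. The windows are the 250 bases before the RefSeq start on GRCm38.p6, at chr2:127335909-127336158 on the plus strand for Dusp2, chr19:53528895-53529144 on the plus strand for Dusp5, chr1:184034131-184034380 on the plus strand for Dusp10 and chr6:134792629-134792878 on the minus strand for Dusp16. They run 5′ to 3′ along the gene, with capitals for matches to any motif searched. Of the members, 7 had such a window. The Dusp16 window lies just outside its annotated span, whereas the Dusp10 window lies inside its own. The bases after the Dusp10 window occurred in 1 of its 2 annotated transcripts.
Dusp2: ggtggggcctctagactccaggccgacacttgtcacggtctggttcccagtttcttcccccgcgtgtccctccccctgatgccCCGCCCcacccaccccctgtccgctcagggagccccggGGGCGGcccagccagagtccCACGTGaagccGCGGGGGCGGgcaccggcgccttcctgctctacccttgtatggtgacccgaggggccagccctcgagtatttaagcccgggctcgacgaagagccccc
Dusp5: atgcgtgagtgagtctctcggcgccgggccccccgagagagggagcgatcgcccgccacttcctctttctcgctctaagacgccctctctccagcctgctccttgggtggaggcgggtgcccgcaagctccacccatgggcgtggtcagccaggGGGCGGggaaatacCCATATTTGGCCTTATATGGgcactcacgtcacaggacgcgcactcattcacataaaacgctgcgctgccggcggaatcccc
Dusp10: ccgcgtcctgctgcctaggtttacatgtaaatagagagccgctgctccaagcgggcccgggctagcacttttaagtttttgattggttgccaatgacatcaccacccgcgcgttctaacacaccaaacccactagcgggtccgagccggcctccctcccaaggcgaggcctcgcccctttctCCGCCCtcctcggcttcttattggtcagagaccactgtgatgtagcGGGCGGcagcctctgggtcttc
Dusp16: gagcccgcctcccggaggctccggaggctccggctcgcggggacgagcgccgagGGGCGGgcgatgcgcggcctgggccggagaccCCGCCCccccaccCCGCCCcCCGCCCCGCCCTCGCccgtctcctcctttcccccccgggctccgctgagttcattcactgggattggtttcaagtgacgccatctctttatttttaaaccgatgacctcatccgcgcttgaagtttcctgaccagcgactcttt

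A set of 13 motifs was searched on both strands, 11 by their letters and the CArG box and kappa B motifs by name. In Dusp5, 2 CArG boxes lay side by side at -82 to -73 and -72 to -63 from the start, and 1.47% of the 32851 windows of all genes held at least 1. The EGR letters (GCGNGGGCG) occurred in Dusp2 at -98 to -90 and in Dusp16 at -138 to -130, and in 4.70% of all windows. They overlap a GC box in both. Dusp2 also held an E-box (CACGTG), as did Dusp1, against 6.02% of all windows, and Dusp1 held the CRE letters (TGACGTCA) at -143 to -136, against 1.55%. A GC box, spelled GGGCGG, occurred in 5 of the 7 windows, with 2 matches in Dusp10, and in 32.7% of all windows. The windows of Dusp6 and Dusp7 held none of the motifs. The letters TGANTCA of AP-1 sites occurred in none of the 7 windows and in 6.75% of all windows. The ETS letters CCGGAAGT were likewise absent from these windows and present in 2.88% of all of them, and the TATA box TATAAA was present in 12.4%. For the NFAT core TGGAAA the share of all windows was 18.6%, again with no match in a member, and for the FOXO letters GTAAACA it was 3.17%. The GAS letters TTCNNNGAA, bound by STAT factors, had no match in a member and occurred in 7.02% of all windows. The ISRE core, searched as GAAANNGAA, was found in 7.13% and kappa B in 3.90% of all windows, both in none of the 7.

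The αCD3 comparison asked what engagement of the T cell receptor complex does to these genes. Of the 8 members, 2 were called higher (Dusp2 and Dusp5), where 22.9% of all tested genes were, and 2 were called lower (Dusp1 and Dusp10), where 15.7% of tested genes were; called means an adjusted p under 0.05. The median absolute log2 difference was 0.40 over the members and 0.33 over all tested genes. These 4 calls held when any single library was left out, with Dusp10 between -2.07 and -1.75 and Dusp2 between 0.64 and 1.03, and on replicates 2 and 3 alone, where the log2 differences were 0.82 for Dusp2 (adjusted p = 4.65e-06), 0.87 for Dusp5 (adjusted p = 8.69e-06), -0.65 for Dusp1 (adjusted p = 0.00131) and -2.14 for Dusp10 (adjusted p = 0.0017). In the same comparison 5 of 10 B cell markers were called lower and none higher, 5 of 9 T cell markers were higher and 1 lower, and 4 of 10 macrophage and monocyte markers were lower and 1 higher. Of the other marker lists, 2 of 4 CD4 T cell, 2 of 6 dendritic cell and 1 of 4 tested neutrophil markers were lower. Their part in the members' differences was not tested.

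With IFNγ, no member was called higher by edgeR, DESeq2 or limma-voom, where 8.17% of tested genes were by edgeR (1 member, Dusp16, was at an unadjusted p under 0.05), and 2 were called lower (Dusp1 and Dusp7), where 4.27% were. The median log2 difference over the members was -0.23, against -0.02 over all tested genes. With the replicate number as a block 4 members were called lower, where 11.4% of tested genes then were. These were Dusp1 (adjusted p = 0.00553) and Dusp7 (adjusted p = 0.0111), with Dusp2 and Dusp10 in addition. DESeq2 called Dusp10 lower as well. In a fit of the 2 groups alone Dusp1 was lost (adjusted p = 0.0564). The calls of Dusp1 and Dusp7 were lost without Naïve replicate 1, 2 or 3 and without IFNγ replicate 2 or 3, with adjusted p up to 0.0822 and 0.1, and log2 differences from -0.59 to -0.34 and from -0.33 to -0.27. On replicates 2 and 3 alone both passed, at -0.59 (adjusted p = 0.00542) and -0.34 (adjusted p = 0.0131). Without LPS replicate 1, Dusp16 was called higher (adjusted p = 0.0263). Of the B cell markers 2 were lower and none higher, no T cell marker was called (2 were higher at an unadjusted p under 0.05), 2 macrophage and monocyte markers were higher and 2 of 6 dendritic cell markers lower, and their part in the differences was not tested.

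With LPS, 3 members were called higher (Dusp4, Dusp5 and Dusp16), where 26.9% of tested genes were, and 1 was called lower (Dusp6), where 22.3% were. The median absolute log2 difference was 0.42 over the members and 0.40 over all tested genes. With the replicate number as a block 6 were called, with Dusp2 higher and Dusp10 lower in addition, where 31% of tested genes were then higher and 28.4% lower. On replicates 2 and 3 alone Dusp4 (adjusted p = 3.2e-06), Dusp5 (0.48, adjusted p = 0.000229), Dusp16 (adjusted p = 4.21e-06) and Dusp6 (-0.77, adjusted p = 0.00209) passed as well. Dusp4, Dusp6 and Dusp16 held when any single library was left out, with ranges of 0.78 to 1.07, -1.08 to -0.83 and 1.04 to 1.26. Dusp5 did not: its call was lost without any 1 of the Naïve libraries and without LPS replicate 2 or 3 (0.31 to 0.53, adjusted p up to 0.129), and it was also lost when library size alone was the scale (0.20, adjusted p = 0.188). In this comparison 4 of 10 B cell markers were lower and 1 higher, 6 of 9 T cell markers were lower, and 4 of 10 macrophage and monocyte markers were lower and 1 higher. Of the other lists, 3 of 4 CD4 T cell, 1 of 4 tested neutrophil and 1 of 6 NK cell markers were lower, and of 6 dendritic cell markers 1 was higher and 1 lower, and their part in the differences was not tested.

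The 3 comparisons share the Naïve libraries. On library size alone, which shifted the median of all tested genes to -0.13 with αCD3, -0.16 with IFNγ and -0.22 with LPS on the log2 scale, from -0.02, -0.02 and -0.01, Dusp7 passed as lower with αCD3 (-0.27, adjusted p = 0.0129) and LPS (-0.32, adjusted p = 0.00392). Dusp10 then passed as lower with IFNγ (-0.72, adjusted p = 0.0372) and LPS (-0.64, adjusted p = 0.0242). Over all genes, the share of higher among called genes moved on that scale from 59.3% to 44.0% with αCD3, from 65.6% to 31.4% with IFNγ and from 54.7% to 32.8% with LPS.

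**Figure D3:**
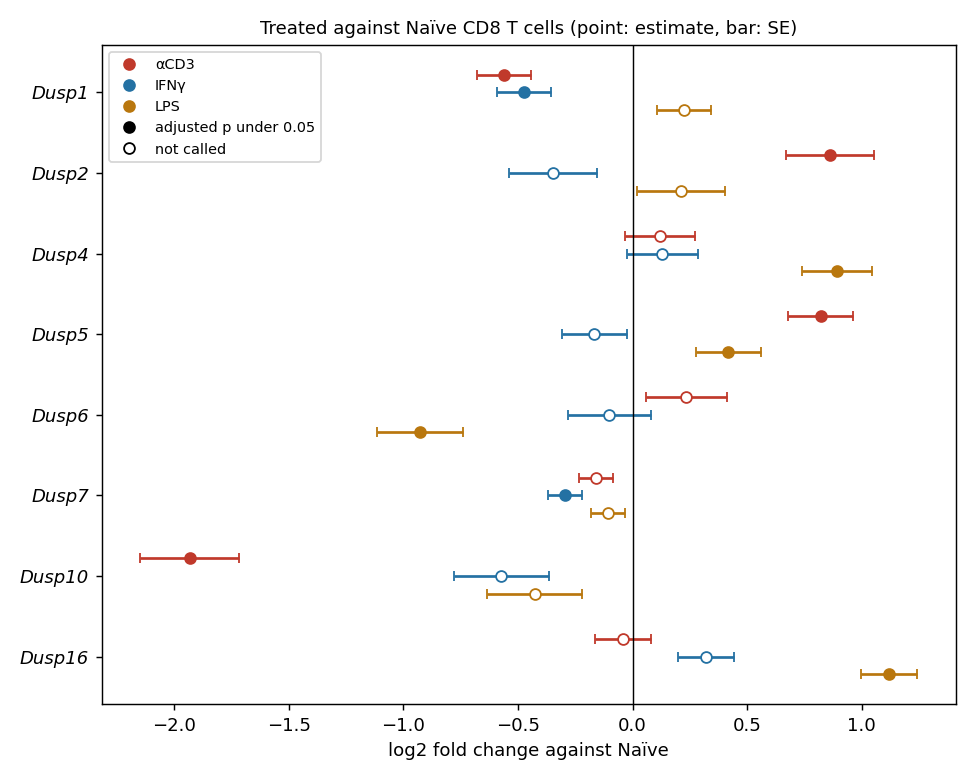
Log2 fold change of each phosphatase against Naïve for αCD3, IFNγ and LPS (point: estimate, bar: SE, filled: adjusted p under 0.05). Dusp10 with αCD3 lies farthest from 0 at -1.93, and Dusp16 with LPS is the highest at 1.12.

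The treatments were then compared directly, which tests whether their effects on a member differed. All 8 members were called in the test for any difference among the 4 groups, against 59.9% of tested genes, with adjusted p from 3.88e-05 for Dusp16 to 0.0291 for Dusp7. The Dusp7 call was lost without any 1 of the Naïve libraries and without IFNγ replicate 2 or 3 (adjusted p up to 0.0886), which left 7.

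Between IFNγ and αCD3, 2 members were called higher with IFNγ (Dusp10 and Dusp16), where 15.8% of tested genes were, and 2 were lower (Dusp2 and Dusp5), where 21.4% were. Dusp10 was 2.56-fold higher with IFNγ (1.36 ± 0.21 on the log2 scale, adjusted p = 0.000628). Dusp2 was 2.31-fold lower (-1.21 ± 0.19, adjusted p = 0.000728) and Dusp5 1.98-fold lower (-0.99 ± 0.14, adjusted p = 0.000352). The Dusp16 difference of 0.36 ± 0.12 (adjusted p = 0.0383) was lost without αCD3 replicate 2 or 3 or any 1 of the IFNγ libraries (0.32 to 0.43, adjusted p up to 0.118), in limma-voom (adjusted p = 0.0582), on library size alone (adjusted p = 0.0536) and with no filter on low counts (adjusted p = 0.0677). On replicates 2 and 3 alone Dusp7 passed as lower with IFNγ (-0.22, adjusted p = 0.0494). Dusp1, lower than Naïve in both, differed by 0.09 between them, with a 95% interval from -0.18 to 0.35. Here 5 of 9 T cell markers were lower with IFNγ and 1 higher, 3 of 10 B cell markers higher and 1 lower, 2 of 4 CD4 T cell, 1 of 10 macrophage and monocyte and 1 of 4 tested neutrophil markers higher, and 1 of 6 dendritic cell markers lower.

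Between IFNγ and LPS, 1 member was higher with IFNγ (Dusp6), where 18.0% of tested genes were called higher, and 5 were lower (Dusp1, Dusp2, Dusp4, Dusp5 and Dusp16), where 22.4% were. The median over the members was -0.57 on the log2 scale, against 0.04 over all tested genes. Dusp16 was 1.74-fold lower with IFNγ (-0.80 ± 0.12, adjusted p = 0.000402), Dusp4 1.70-fold (-0.76 ± 0.15, adjusted p = 0.00247) and Dusp1 1.62-fold (-0.70 ± 0.12, adjusted p = 0.000868). Dusp5 was lower by -0.58 ± 0.14 (adjusted p = 0.0076) and Dusp6 was higher by 0.83 ± 0.19 (adjusted p = 0.00495). The Dusp2 difference of -0.56 ± 0.19 (adjusted p = 0.0403) was lost without IFNγ replicate 2 or 3 or any 1 of the LPS libraries (adjusted p up to 0.126), on library size alone (-0.48, adjusted p = 0.09) and with no filter on low counts (adjusted p = 0.0512). Dusp7, at -0.19 ± 0.08 (adjusted p = 0.0645), passed with the replicate number as a block (adjusted p = 0.0464), without LPS replicate 1 (adjusted p = 0.017) and on replicates 2 and 3 alone (adjusted p = 0.0127). Dusp10 differed by -0.15, with a 95% interval from -0.61 to 0.31. In this comparison 7 of 9 T cell markers were higher with IFNγ and none lower, 4 of 10 B cell markers higher and 3 lower, 3 of 10 macrophage and monocyte markers higher and 1 lower, 1 of 6 dendritic cell markers higher and 2 lower, and 1 of 4 CD4 T cell and 1 of 6 NK cell markers higher.

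Between αCD3 and LPS, 2 members were higher with αCD3 (Dusp2 and Dusp6), where 9.64% of tested genes were, and 4 were lower (Dusp1, Dusp4, Dusp10 and Dusp16), where 9.76% were. The median absolute log2 difference was 0.78 over the members and 0.22 over all tested genes. Dusp10 was 2.84-fold lower with αCD3 (-1.5 ± 0.21, adjusted p = 0.000893), Dusp16 2.23-fold (-1.16 ± 0.12, adjusted p = 0.000138), Dusp1 1.73-fold (-0.79 ± 0.12, adjusted p = 0.00122) and Dusp4 1.71-fold (-0.77 ± 0.15, adjusted p = 0.00566). Dusp6 was 2.24-fold higher (1.16 ± 0.19, adjusted p = 0.00165). Dusp2 was 1.57-fold higher (0.65 ± 0.19, adjusted p = 0.0377), but not without αCD3 replicate 1 (0.43, adjusted p = 0.125) or without any 1 of the LPS libraries. The Dusp5 difference of 0.40 ± 0.14 did not pass (adjusted p = 0.0717), but did with the replicate number as a block (0.41, adjusted p = 0.000431), without αCD3 replicate 1 (adjusted p = 0.0394), on replicates 2 and 3 alone (0.40, adjusted p = 0.00168), on library size alone (0.50, adjusted p = 0.0169) and in DESeq2 (adjusted p = 0.0496). Dusp7 differed by -0.05, with a 95% interval from -0.22 to 0.11. Of the markers, 7 of 9 T cell markers were higher with αCD3 and 1 lower, 3 of 10 B cell markers higher and 2 lower, 1 of 10 macrophage and monocyte markers higher and 1 lower, 1 of 6 dendritic cell markers higher and 2 lower, and 1 of 4 CD4 T cell markers higher. Their part in the differences was not tested here or in the other comparisons between treatments.

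**Figure D4:**
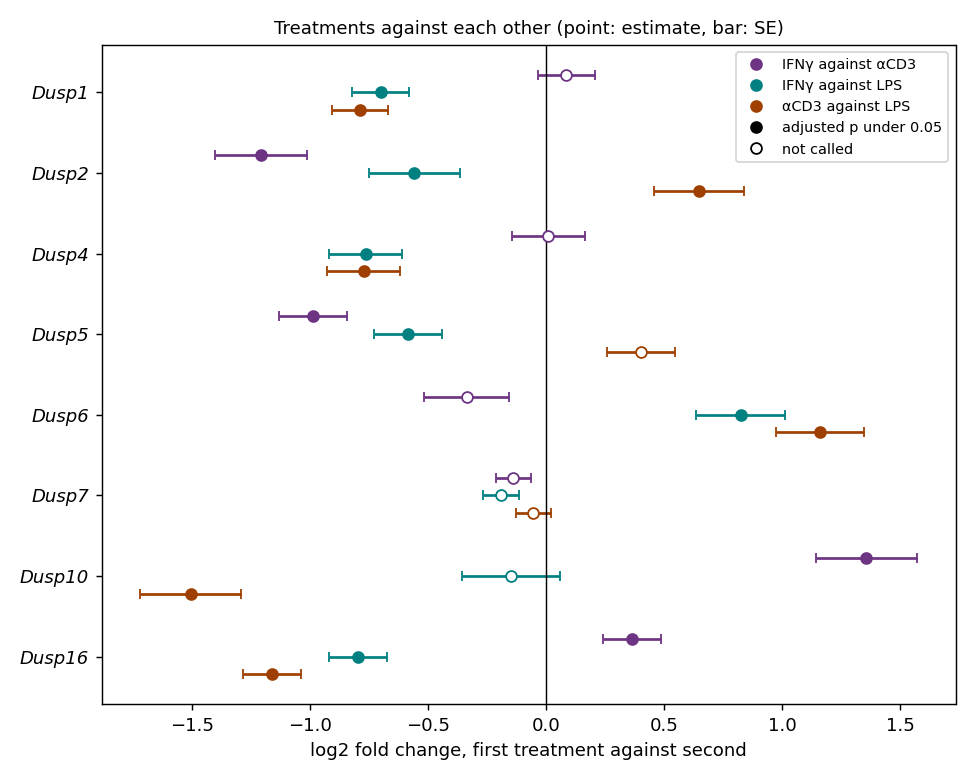
Log2 fold change of each phosphatase between treatments, the first named against the second (point: estimate, bar: SE, filled: adjusted p under 0.05). Dusp10 and Dusp2 lie on opposite sides in IFNγ against αCD3 (1.36 and -1.21), and Dusp7 is within 0.2 of 0 in all 3 comparisons.

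Across the 12 libraries, the members did not follow a single pattern. Dusp4 and Dusp16 were the most alike pair (Pearson r = 0.88 of log2 CPM), followed by Dusp2 and Dusp5 (r = 0.68). Dusp6 and Dusp16 (r = -0.81) and Dusp2 and Dusp10 (r = -0.72) ran in opposite directions. By rank the Spearman rho was 0.72 and 0.657 for the first 2 pairs. For Dusp6 and Dusp16 it was -0.573, weaker than for Dusp2 and Dusp10 (-0.657). These are descriptions over libraries that share 4 groups and a replicate numbering. Among 9604 genes searched, those most like Dusp2 were Git1 (r = 0.96), the amino acid transporter gene Slc1a5 (0.96) and the orphan nuclear receptor gene Nr4a1 (0.95). The closest to Dusp5 were Uqcr10 (0.98), the lactate dehydrogenase gene Ldha (0.98), which was at 383 ± 53.9 CPM in Naïve and 1025 ± 225 CPM in αCD3 cells, and Bsg (0.97). Dusp10 was closest to Tspan9 (0.99; 55.1 ± 6.70 CPM in Naïve and 11.8 ± 2.49 CPM in αCD3 cells), Sft2d2 (0.98) and Selplg (0.98), which encodes the P-selectin ligand. Dusp16 was closest to Ptp4a2 (0.98), Dnajb9 (0.97) and Tank (0.96), and Dusp4 to Ubb (0.96), Rybp (0.96) and Lcn2 (0.95), the last at 18.0 ± 5.0 CPM in Naïve and 166 ± 11.2 CPM in LPS cells. Dusp6 was closest to Nab2 (0.92), a corepressor of EGR factors, Zfp52 (0.92) and Ephx1 (0.92). By rank these were less close, with a Spearman rho of 0.804 for Nab2, 0.65 for Zfp52 and 0.797 for Ephx1. Dusp1 was closest to Zhx2 (0.94), the interferon gamma receptor gene Ifngr2 (0.92) and Stk40 (0.91), and Dusp7 to Lmo7 (0.89), Ccdc22 (0.88) and Tgfb1 (0.87).

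The surrounding pathway was read from lists of its other genes. Of the remaining MAP kinase phosphatases, Dusp8 and Dusp9 were called in no comparison with Naïve by edgeR, DESeq2 or limma-voom, with group means of 1.71 to 3.68 and 0.540 to 0.684 CPM. At an unadjusted p under 0.05 neither passed in any of these comparisons. Of 8 atypical dual-specificity phosphatases, which lack the MAP kinase binding domain, 1 was higher and 1 lower with αCD3, 1 was higher with IFNγ, and 3 were higher and 1 lower with LPS. With the replicate number as a block 1 was higher and 3 lower with αCD3. On library size alone the counts were the same as with the block for αCD3, and with LPS 2 were higher and 3 lower. With αCD3, 2 were higher and 2 lower on replicates 2 and 3 alone. Dusp28 rose with IFNγ from 8.33 ± 0.502 to 21.6 ± 6.54 CPM (1.37 ± 0.22 on the log2 scale, adjusted p = 0.00246). Dusp14, a phosphatase reported to restrain T cell receptor signalling, rose with LPS from 3.41 ± 0.405 to 6.75 ± 1.47 CPM (0.98 ± 0.25, adjusted p = 0.00757). Dusp3 fell with LPS from 14.7 ± 4.03 to 7.58 ± 1.27 CPM (adjusted p = 0.00425) and with αCD3 to 8.62 ± 1.21 CPM (adjusted p = 0.0152), the latter lost without Naïve replicate 2 or 3 or αCD3 replicate 2 (adjusted p up to 0.0633). Dusp12 rose with αCD3 from 16.6 ± 1.26 to 23.3 ± 1.73 CPM (adjusted p = 0.00222).

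Of 10 MAP kinase genes listed, 9 were tested. With αCD3 1 was lower, Mapk3, which encodes ERK1, at 57.8 ± 2.01 CPM in Naïve and 36.1 ± 4.87 CPM (-0.67 ± 0.12 on the log2 scale, adjusted p = 0.00172). With IFNγ 2 were called higher. Mapk9, which encodes JNK2, rose from 64.9 ± 2.82 to 113 ± 8.90 CPM (0.80 ± 0.08, adjusted p = 0.000321). The other, Mapk13, was named after its values were seen and lies below the 5 CPM asked of named genes. Its mean was 0.0807 CPM in Naïve and 1.72 CPM with IFNγ. It may have passed the filter on low counts through the IFNγ libraries alone, so its call is not read as a result. With LPS 1 was higher, Mapk9 at 77.6 ± 2.55 CPM (0.26 ± 0.08, adjusted p = 0.021; 0.05 and adjusted p = 0.606 on library size alone), and 3 were lower. That rise was also lost without Naïve replicate 2 or 3 or LPS replicate 2 (adjusted p up to 0.0679). The largest fall was that of Mapk11, a p38 gene, from 15.8 ± 2.60 to 7.09 ± 1.63 CPM (-1.17 ± 0.25, adjusted p = 0.00266). With the replicate number as a block the counts of higher and lower were 2 and 2 with αCD3, 2 and 3 with IFNγ and 2 and 3 with LPS, and on library size alone 0 and 2, 2 and 1, and 0 and 4. They were 1 and 2, 2 and 2, and 1 and 3 on replicates 2 and 3 alone, where 8 were tested.

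Of 7 MAP kinase kinases, 1 was higher with αCD3 (Map2k3, 51.7 ± 1.38 to 76.9 ± 9.45 CPM, adjusted p = 0.00149), 1 with IFNγ (Map2k1, 108 ± 3.71 to 157 ± 28.1 CPM, adjusted p = 0.0293) and 3 with LPS, where 1 was lower. Map2k1, which encodes the ERK kinase MEK1, was the largest of the LPS rises, to 199 ± 9.80 CPM (0.88 ± 0.14 on the log2 scale, adjusted p = 0.000512). Its IFNγ call was lost without any 1 of the Naïve libraries or IFNγ replicate 2 or 3 (adjusted p up to 0.124) and on library size alone (adjusted p = 0.0505). On library size alone the split turned, with 1 lower and none higher with IFNγ and 1 higher and 2 lower with LPS. With the replicate number as a block, 3 were higher and 1 lower with αCD3, and 4 were higher and 2 lower with LPS. The counts on replicates 2 and 3 alone were 3 and 1 with αCD3, 1 and 1 with IFNγ and 3 and 1 with LPS. Of 17 upstream Ras, Raf and MAP3K genes, 2 were higher and 4 lower with αCD3, 4 higher and 1 lower with IFNγ, and 2 higher and 6 lower with LPS, and with the block 3 and 7, 4 and 2, and 4 and 8. On library size alone, none was higher and 5 were lower with αCD3, 1 was higher and 2 lower with IFNγ, and 1 was higher and 9 lower with LPS. The counts of higher and lower on replicates 2 and 3 alone were 3 and 7, 5 and 3, and 2 and 7 in the same order. Rasgrp1, the Ras activator downstream of the T cell receptor, fell from 253 ± 39.5 CPM to 156 ± 15.1 CPM with IFNγ (-0.69 ± 0.16, adjusted p = 0.0163) and 130.2 ± 21.3 CPM with LPS (-0.96 ± 0.16, adjusted p = 0.000626), the IFNγ call lost without Naïve replicate 3 or IFNγ replicate 2 (adjusted p up to 0.0697). Map3k8, the kinase that links Toll-like receptors to ERK, rose with LPS from 36.9 ± 4.32 to 61.8 ± 6.32 CPM (adjusted p = 0.0044), Map3k5 rose with IFNγ from 73.4 ± 2.89 to 117 ± 8.36 CPM (adjusted p = 0.000583), and Map3k3 fell with αCD3 from 116 ± 13.0 to 70.2 ± 16.0 CPM (adjusted p = 0.0141, up to 0.0605 without Naïve replicate 1 or αCD3 replicate 2 or 3). Hras rose with αCD3 from 24.4 ± 1.11 to 29.4 ± 1.69 CPM (adjusted p = 0.0227), though not on library size alone (adjusted p = 0.138) or without Naïve replicate 1 or 2 or αCD3 replicate 2 or 3.

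Sprouty and Spred proteins are another class of feedback inhibitors of the ERK cascade, and 5 of their genes were tested. With αCD3 2 were higher, with IFNγ none was called by edgeR, DESeq2 or limma-voom (1 was lower at an unadjusted p under 0.05), and with LPS 1 was lower. With the replicate number as a block 3 were higher with αCD3, and 1 was higher and 1 lower with LPS. With replicates 2 and 3 alone 3 were higher with αCD3, and 2 were higher and 1 lower with LPS, and 1 was lower with IFNγ on library size alone. Spry1 gave the largest change of the pathway lists with αCD3, from 3.53 ± 0.811 to 47.5 ± 3.60 CPM (3.76 ± 0.17 on the log2 scale, adjusted p = 1.66e-06). Of 19 MAP kinase responsive immediate early genes, 8 were higher and 1 lower with αCD3, 1 higher and 3 lower with IFNγ, and 7 higher and 4 lower with LPS, and with the block 9 and 3, 2 and 4, and 9 and 5. The counts were 8 and 3, 5 and 4, and 9 and 4 on replicates 2 and 3 alone, and 7 and 1, 1 and 4, and 4 and 4 on library size alone. Nr4a2 rose with αCD3 from 6.41 ± 2.10 to 27.2 ± 7.47 CPM (2.07 ± 0.25, adjusted p = 0.000129), and Jund fell from 449.6 ± 29.6 to 314 ± 13.3 CPM (adjusted p = 0.000185). Jun, a subunit of AP-1, rose from 125 ± 9.14 CPM to 598 ± 87.7 CPM with IFNγ (2.25 ± 0.28, adjusted p = 0.000843) and to 495 ± 199 CPM with LPS (1.98 ± 0.27, adjusted p = 0.000217). Egr2, a zinc finger factor induced by the T cell receptor, fell with IFNγ from 24.1 ± 4.46 to 15.3 ± 0.384 CPM (adjusted p = 0.0319), a call lost without Naïve replicate 2 or 3 or any 1 of the IFNγ libraries (adjusted p up to 0.125) and in limma-voom (adjusted p = 0.0831). Egr3 fell with LPS from 6.26 ± 0.325 to 1.63 ± 1.41 CPM (adjusted p = 0.024), but not without Naïve replicate 1 (adjusted p = 0.0514), on replicates 2 and 3 alone (-2.33, adjusted p = 0.081) or in a fit of the 2 groups alone (adjusted p = 0.0985). Its log2 difference was -1.97 in edgeR and -3.44 in limma-voom. Over all tested genes 38.6% were called either way with αCD3, 12.4% with IFNγ and 49.3% with LPS. With the block 28.1% of them were higher and 24.2% lower with αCD3, 13.5% and 11.4% with IFNγ, and 31% and 28.4% with LPS. The shares higher and lower on library size alone were 17.3% and 22.0%, 5.90% and 12.9%, and 17.7% and 36.1% in the same order, and on replicates 2 and 3 alone 26.7% and 22.1%, 11.8% and 11.5%, and 29.2% and 25.9%.

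**Figure D5:**
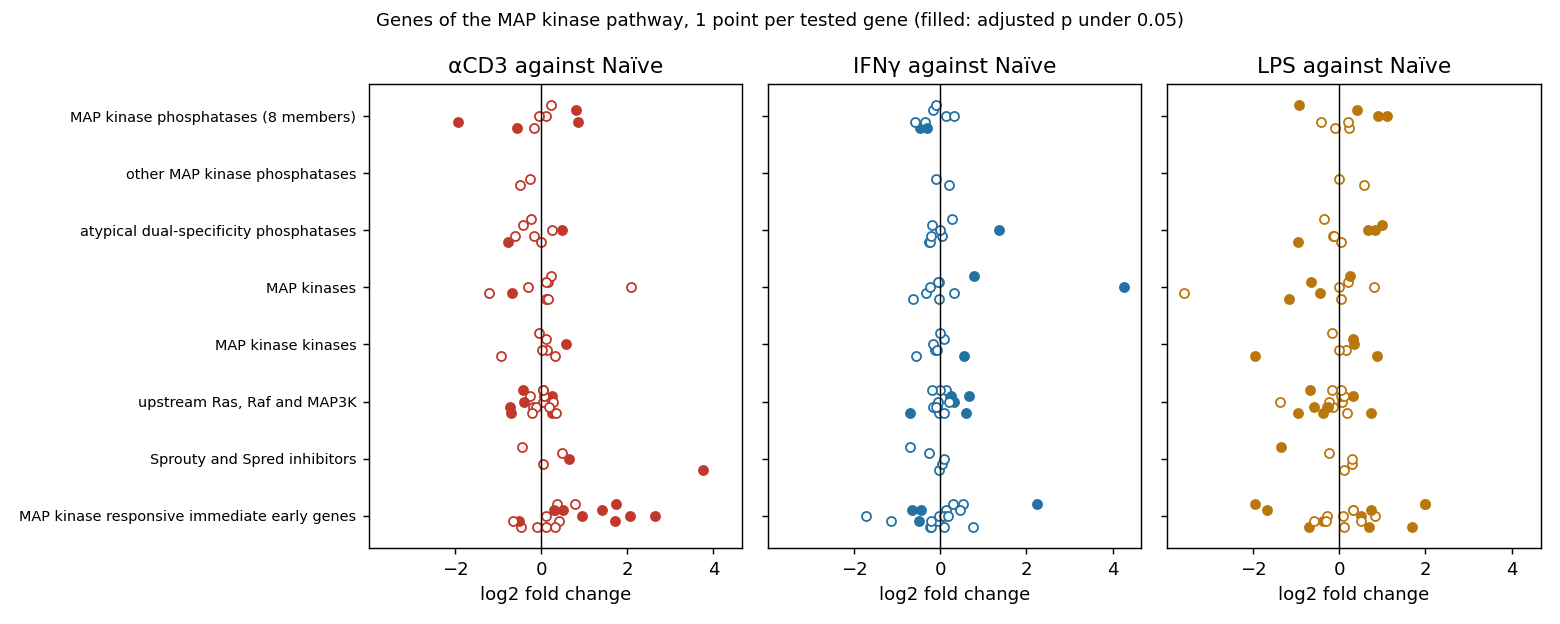
Log2 fold change against Naïve of every tested gene of each MAP kinase pathway list, 1 point per gene and 1 panel per treatment (filled: adjusted p under 0.05). Spry1 at 3.76 is the filled point farthest right with αCD3, and the members run from -1.93 to 0.86 in that panel.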

How the data were processed

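RNA of splenic CD8 T cells was measured in 12 libraries, 3 in each of 4 groups set by the labels. The authors pseudo-aligned reads with Kallisto to mm10, and deposited estimated counts (expected counts) per gene symbol, neither pooled nor scaled; per the methods and the processing notes DESeq2 1.24.0 was used after that. The Kallisto version and the annotation are not given in the sources used here. Reads shared by transcripts are divided by estimation, so the counts of genes with overlapping or similar transcripts are uncertain.

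The deposited counts were rounded to whole numbers and tested with the edgeR 4.0.16 quasi-likelihood test (R 4.3.3), with TMM scaling and the filterByExpr filter (minimum count 10), which left 12122 of 20778 genes. All 12 libraries entered a single fit, each pair of groups was a contrast, and p-values were adjusted over all tested genes (Benjamini-Hochberg, threshold 0.05). Depth was 10196248 to 27610175 counts per library. The script was tested on simulated data. The level of 1 marker gene is not reported here. The members and all lists were chosen with earlier results of these data known. Named pathway genes are those called with the largest rise and fall in each list and comparison with Naïve, at 5 CPM or more in the higher group. Likeness names the 3 genes with the highest Pearson r of log2 CPM (prior count 2). Lengths and coordinates came from GENCODE M21 (GRCm38) and promoters from RefSeq (GRCm38.p6), with 7 of 8 members matched by symbol.

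Libraries of different groups with the same replicate number in the labels deviated together: all 18 such pairs had r from 0.117 to 0.401, and every library correlated best with its own number. The number was therefore taken to pair them. It was used as a block in an alternative fit, while the main fit had no block, because the methods of the study name none. The other alternatives were DESeq2 size factors, library size alone, no or a stricter count filter (minimum 30), the DESeq2 1.42.0 Wald test, limma-voom (limma 3.58.1), a fit of the 2 groups compared, each library left out in turn and, chosen after seeing the data, replicates 2 and 3 only, 21 in all.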

Additional observations from a re-analysis of the deposited data

How the results depend on the processing

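Of the results for the members and named pathway genes under the 21 alternatives, 1429 kept their direction and their side of the threshold, 68 kept the direction and no longer passed, 23 newly passed and 13 changed sign; the cause was not tested unless stated. The calls of Dusp1, Dusp2, Dusp5 and Dusp10 with αCD3, and of Dusp4, Dusp6 and Dusp16 with LPS, passed under every alternative.

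The number of members called with IFNγ against Naïve (2) was 4 with the replicate number as a block, 1 in a fit of the 2 groups alone, 4 with replicates 2 and 3 only, and 0 to 3 with 1 library left out. All genes called in that comparison numbered 1508, and 2279 on library size alone, 3020 with the block, 2837 with replicates 2 and 3 only and 787 to 1651 with 1 library left out. For αCD3 against LPS the 2351 genes became 4202 with the block, 1440 in a fit of the 2 groups alone, 3582 with replicates 2 and 3 only and 1429 to 2590 with 1 library left out. Beyond the calls named in the report for Dusp2, Dusp5, Dusp7 and Dusp10, the replicate block changed no other call of a member.

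All signs that changed belonged to differences that did not pass. With 1 library left out, those against Naïve with αCD3 ran from -0.0519 to 0.295 for Dusp4, -0.0139 to 0.369 for Dusp6 and -0.107 to 0.0259 for Dusp16. IFNγ against αCD3 ran from -0.0284 to 0.22 for Dusp1 and -0.0706 to 0.181 for Dusp4, and αCD3 against LPS from -0.118 to 0.0064 for Dusp7. On library size alone Dusp4 was at -0.00892 for IFNγ against Naïve and -0.0213 for IFNγ against αCD3, and Dusp7 at 0.0469 for αCD3 against LPS. With no filter Dusp4 was at -0.0129 for IFNγ against αCD3.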
